A study of Mus musculus with 20 samples.

Results

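Perforin and granzymes A, B, K and M are the RNAs described here, taken as the rows of the deposited expression table whose symbol was Prf1, Gzma, Gzmb, Gzmk or Gzmm. All 5 were found among the 45777 symbols of the table, and all 5 passed the filter on low values, which kept 11794 genes with at least 1 FPKM (fragments scaled by transcript length and library size) in at least 5 libraries. RNA was sequenced from CD8+ T cells sorted out of MC38-hPD-L1 tumours, a mouse colon carcinoma line that overexpresses human PD-L1. The hosts of all groups were mice of the C57BL/6 background in which PD-1, PD-L1 and 4-1BB are the human versions (hPD-1/hPD-L1/h4-1BB), and they began treatment when tumours averaged 150 to 200 mm3. On day 4 after treatment 4 groups of 5 libraries were collected: Control, pembrolizumab (an antibody that blocks PD-1), ABL503 (a bispecific antibody with an arm against PD-L1 and an arm against 4-1BB) and the Combination of both antibodies. The sources used here give no dose, age or sex, do not say what the Control group received, and do not say whether animals were pooled or whether each library came from a mouse of its own. The p-values therefore measure the spread between these samples, which may be technical.

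Cytotoxic T cells store perforin and granzymes in secretory granules and release them onto a bound target cell. Perforin assembles into pores through which granzymes, a family of serine proteases, reach the target's cytosol, where granzyme B cuts after aspartate and activates the caspase pathway. Granzymes A and K are tryptase-like proteases that cut after basic residues, and granzyme M prefers methionine or leucine. In CD8+ T cells Gzmb and Prf1 are known as genes of armed effector cells, Gzmk as a gene of earlier or less differentiated effector and memory cells, and Gzmm as a gene that NK cells and other innate-like lymphocytes carry as well.

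On GRCm38.p6, the build of the RefSeq annotation used for positions, the genes lie at 4 places on 3 chromosomes. Prf1 (ENSMUSG00000037202.6) spans chr10:61297751-61304684 and Gzmm (ENSMUSG00000054206.2) chr10:79689020-79695261, both on the plus strand. Gzma (ENSMUSG00000023132.8) at chr13:113093824-113100981 and Gzmk (ENSMUSG00000042385.14) at chr13:113171630-113180965 are minus-strand neighbours, 70649 bp apart. Gzmb (ENSMUSG00000015437.5) occupies chr14:56258836-56262334 on the minus strand, 17189 bp from Gzmc. The identifiers come from GENCODE M21, since the table gives symbols alone. None of the stretches of 50 bases in the transcripts of the 5 genes, between 1004 and 2532 per gene, occurred in a transcript of another gene.

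The RefSeq sequence upstream of the start site is shown for Prf1 and Gzmb, whose RNA changed together between groups, and for Gzmk, whose RNA followed them between the libraries of a group. Each is written 5′ to 3′ along the gene's own strand, with capitals on matches to 6 short motifs searched on both strands. The motifs were RUNX (TGTGGT), T-box (GTGTGA), AP-1 (TGANTCA), a CRE core (TGACGT), TCF/LEF (CTTTGA) and STAT (TTCNNNGAA). The Prf1 stretch is chr10:61297586-61297750, since a predicted RefSeq transcript covers the 85 bases nearest the start. The Gzmb stretch is chr14:56262335-56262584 and the Gzmk stretch chr13:113180966-113181215.
Prf1: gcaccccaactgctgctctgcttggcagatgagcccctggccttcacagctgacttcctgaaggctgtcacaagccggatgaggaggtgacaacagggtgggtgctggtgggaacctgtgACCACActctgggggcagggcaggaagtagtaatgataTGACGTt
Gzmb: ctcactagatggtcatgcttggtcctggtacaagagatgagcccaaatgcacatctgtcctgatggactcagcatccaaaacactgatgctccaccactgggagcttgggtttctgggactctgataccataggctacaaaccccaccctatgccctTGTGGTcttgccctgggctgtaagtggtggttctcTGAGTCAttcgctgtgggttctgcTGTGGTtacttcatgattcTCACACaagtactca
Gzmk: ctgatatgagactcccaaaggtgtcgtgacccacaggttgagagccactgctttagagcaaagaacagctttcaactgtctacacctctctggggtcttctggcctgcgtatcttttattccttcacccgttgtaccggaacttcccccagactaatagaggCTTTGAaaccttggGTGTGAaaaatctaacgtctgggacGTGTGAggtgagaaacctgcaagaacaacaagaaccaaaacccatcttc
In Prf1 the capitals mark a RUNX match on the opposite strand (ACCACA), which begins 130 bases upstream of the start, and a CRE core 92 bases upstream. In Gzmb they mark RUNX matches 93 and 34 bases upstream, an AP-1 match (TGAGTCA) at 58 bases and a T-box match on the opposite strand (TCACAC) at 15 bases. In Gzmk they mark a TCF/LEF match at 88 bases and T-box matches at 74 and 49 bases. Prf1 and Gzmb thus shared the RUNX letters, which the Gzmk stretch lacked, while Gzmb and Gzmk shared the T-box letters. The Prf1 stretch holds 165 bases and leaves out the 85 nearest the start. Letters it lacks therefore cannot be set against the stretches of 250 bases. No matches overlapped each other. Among 32851 mouse promoter windows of 250 bases, 14.0% held the RUNX letters, 12.3% the T-box letters, 6.75% AP-1, 6.47% the CRE core, 13.8% TCF/LEF and 7.02% STAT. The corresponding stretch of Gzma held a RUNX match on the opposite strand at 50 bases, and that of Gzmm held RUNX at 247 bases, also on the opposite strand, and STAT at 86 bases. These matches describe letters in the sequence, and binding was not measured.

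Across the series, column sums of the table ran from 575918 to 654333, and read counts are not given, so the depth of each library is unknown. Markers of the sorted cells were high in every library. The summed level of 6 CD8 T-cell markers (Cd8a, Cd8b1, Cd3e, Cd3d, Cd3g and Lck) was 2810.5 to 4787 FPKM in Control, 3959 to 4611 with pembrolizumab, 3317 to 3983 with ABL503 and 3966 to 5234 in the Combination. The CD4 and regulatory T-cell markers summed to at most 7.21 FPKM in any library, and each of 4 fibroblast markers stayed below 1 FPKM throughout. Other lists were higher in single libraries. The neutrophil markers reached 13.6 FPKM in ABL503, at a median of 0.22, and at most 0.72 in the other groups. The macrophage and monocyte markers reached 105, 71.3, 63.9 and 31.4 FPKM in Control, pembrolizumab, ABL503 and the Combination. Some markers passed against Control by limma. The dendritic-cell marker Xcr1 was higher with pembrolizumab (0.61, adjusted p = 0.017), at a mean of 4.36 against 2.52 FPKM, but not without Pembrolizumab 5 (adjusted p = 0.0503). In the Combination Cd8a was higher (0.43, adjusted p = 0.013), the dendritic-cell marker Zbtb46 higher (0.77, adjusted p = 0.026) and the epithelial marker Epcam lower (-0.86, adjusted p = 0.034), besides the 2 markers given with Gzmm. The Zbtb46 and Epcam calls each ended in 5 of 10 cases with 1 library left out (adjusted p up to 0.070 without Combination 4 and 0.10 without Control 1), and the Cd8a call with only the groups compared (adjusted p = 0.066). The part of these markers in the results was not tested. Differences between groups are differences of log2(FPKM + 1) from a limma fit over all 20 libraries, adjusted by Benjamini-Hochberg over the 11794 genes within each comparison, and a gene passed at an adjusted p under 0.05. In such bulk samples fewer cells carrying a transcript and less of it per cell cannot be told apart.

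The 5 genes did not respond as a block. Prf1 and Gzmb rose with pembrolizumab and in the Combination and had intermediate means with ABL503, Gzma rose with pembrolizumab and passed in neither other comparison with Control, Gzmk passed in no comparison, and Gzmm fell in the Combination. Against Control, pembrolizumab raised 3 of the 5 genes and lowered 0, where 5.55% of all genes passed in either direction. With ABL503 the limma fit called 0 of the 5, where 0.619% of all genes passed and 1292 genes had an unadjusted p under 0.05. Prf1 and Gzmb were among the genes under that unadjusted limit. The Combination raised 2 and lowered 1, where 12.6% of all genes passed. These 3 comparisons share the Control libraries.

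**Figure D1:**
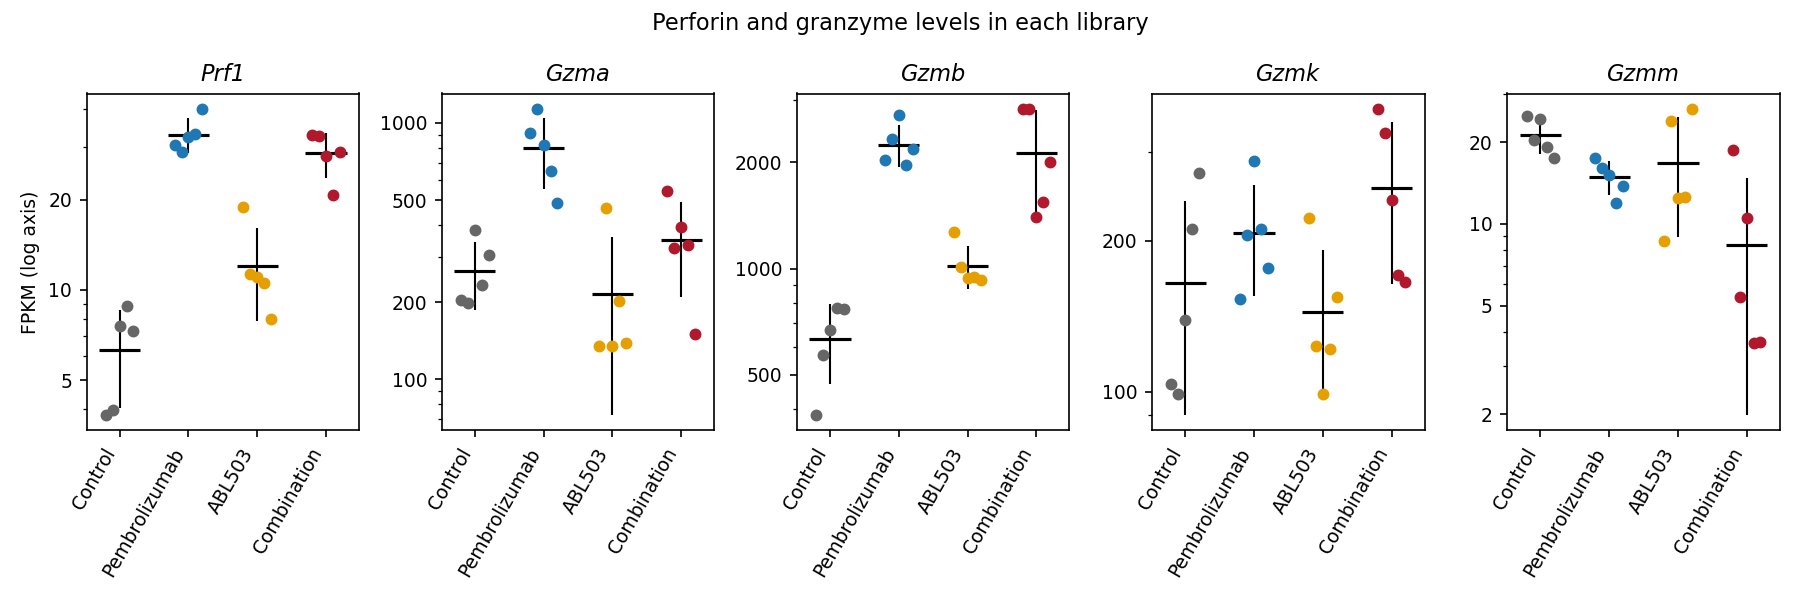
Level of each of the 5 genes in FPKM on a log axis, with points for the 5 libraries of a group, bars for the group mean and lines for 1 SD either side. Prf1 and Gzmb form high groups with pembrolizumab and in the Combination, Gzma is high with pembrolizumab, Gzmk overlaps across all groups, and 4 of 5 Combination libraries lie below all Control libraries for Gzmm.

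Prf1, the pore-forming protein, was the least abundant of the 5 in Control and had the smallest p of all 11794 genes for pembrolizumab against Control. In Control replicates 1 to 5 it stood at 3.83, 3.97, 7.59, 8.83 and 7.27 FPKM, and with pembrolizumab at 30.3, 28.9, 32.5, 33.0 and 40.2. In ABL503 it stood at 18.9, 11.3, 11.1, 10.6 and 8.01, and in the Combination at 32.7, 32.5, 27.9, 20.7 and 28.8. Every pembrolizumab library and every Combination library lay above every Control and every ABL503 library, while 4 of 5 ABL503 libraries exceeded all Control libraries. The group means were 6.30 ± 2.27 in Control (SD, n = 5, as for every mean), 33.0 ± 4.34, 11.97 ± 4.09 and 28.5 ± 4.88 in that order, so the mean was 5.24 times the Control mean with pembrolizumab and 4.53 times in the Combination.

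By limma, Prf1 rose with pembrolizumab by 2.27 on the log2(FPKM + 1) scale (SE 0.21, adjusted p = 4.93e-06) and in the Combination by 2.06 (SE 0.21, adjusted p = 9.42e-06). With ABL503 alone the difference from Control was 0.84 (SE 0.21, adjusted p = 0.075), which did not pass. Without Control 4 it was 0.96 and did pass (adjusted p = 0.044). Prf1 was higher in the Combination than with ABL503 (1.22, SE 0.21, adjusted p = 0.0026) and lower with ABL503 than with pembrolizumab (-1.43, SE 0.21, adjusted p = 0.0045). The Combination and pembrolizumab did not differ beyond the spread (-0.21, 95% interval -0.64 to 0.22, adjusted p = 0.70). The order of the means was thus pembrolizumab, Combination, ABL503 and Control, with neighbouring groups apart in this test only between the Combination and ABL503.

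Gzmb, the caspase-activating granzyme, was the most abundant of the 5 in every group. Its mean level ranked 165 among the 11794 genes kept in Control, 34 with pembrolizumab, 93 with ABL503 and 33 in the Combination. It stood at 385, 569, 670.2, 774 and 767 FPKM in Control replicates 1 to 5 and at 2029.7, 2333, 2722, 1970.4 and 2177 with pembrolizumab. In ABL503 it stood at 1266, 1007, 942, 944 and 927, and in the Combination at 2836, 2830.3, 1401, 1545 and 1999. Control held the 5 lowest libraries and ABL503 the next 5, and neither overlapped another group, whereas pembrolizumab and the Combination overlapped. Within the Combination, replicates 1 and 2 lay above every pembrolizumab library and replicates 3 and 4 below every one.

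The Gzmb means were 633 ± 162 in Control, 2246 ± 301 with pembrolizumab, 1017 ± 142 with ABL503 and 2122 ± 686 in the Combination. Gzmb rose by 1.86 with pembrolizumab (SE 0.20, adjusted p = 2.30e-05) and by 1.73 in the Combination (SE 0.20, adjusted p = 2.83e-05). For ABL503 the difference was 0.72 (SE 0.20, unadjusted p = 0.0017, adjusted p = 0.13 by limma), which did not pass. How often groups fail to overlap among all genes was not counted, here or for Prf1 and Gzma, so non-overlap is a description only. Gzmb was higher in the Combination than with ABL503 (1.01, SE 0.20, adjusted p = 0.0059) and lower with ABL503 than with pembrolizumab (-1.14, SE 0.20, adjusted p = 0.0061). Between the Combination and pembrolizumab the difference was -0.13 (95% interval -0.55 to 0.28, adjusted p = 0.81), and it was 0.00023 without Combination 3.

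Gzma, a tryptase-like granzyme, was the second most abundant of the 5 in every group, and the granzyme for which the Combination mean lay farthest below the pembrolizumab mean on the log2 scale. It stood at 203, 199, 381, 234 and 307 FPKM in Control and at 911, 1134, 819, 651 and 487 with pembrolizumab, all 5 above every Control library. In ABL503 it stood at 135, 465, 135, 202 and 138, and in the Combination at 542, 325, 394, 335 and 151. ABL503 replicate 2 stood apart from its group, at a level that only Combination 1 exceeded outside the pembrolizumab group, and 3 of 5 ABL503 libraries lay below all Control libraries.

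The Gzma means were 265 ± 77.8 in Control, 801 ± 247 with pembrolizumab, 215 ± 142 with ABL503 and 349 ± 141 in the Combination. Gzma rose with pembrolizumab by 1.58 (SE 0.34, adjusted p = 0.0095). It was lower with ABL503 than with pembrolizumab by limma (-2.02, SE 0.34, adjusted p = 0.0055), the largest difference of Gzma. Against Control it did not pass with ABL503 (-0.44, SE 0.34, adjusted p = 0.66) or in the Combination (0.33, 95% interval -0.37 to 1.04, adjusted p = 0.54). In the Combination 4 of 5 libraries lay below every pembrolizumab library and the difference was -1.25 (SE 0.34, 95% interval -1.95 to -0.55). Its unadjusted p was 0.0014, but over all genes it did not pass (adjusted p = 0.12 by limma).

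Gzmk, the other tryptase-like granzyme, passed in none of the 7 comparisons, and its groups overlapped in every pair. It stood at 104, 98.8, 139, 211 and 272 FPKM in Control and at 153, 205, 289, 211 and 176 with pembrolizumab. In ABL503 it stood at 222, 123, 98.8, 122 and 155, and in the Combination at 366, 327, 241, 171 and 165. Combination replicates 1 and 2 were the highest of all 20 libraries, and Control 2 and ABL503 3 the lowest. The means were 165 ± 74.9, 207 ± 51.4, 144 ± 47.7 and 254 ± 90.7 for Control, pembrolizumab, ABL503 and the Combination.

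With pembrolizumab the Gzmk difference from Control was 0.41 (95% interval -0.18 to 1.00, adjusted p = 0.46), and with ABL503 it was -0.14 (95% interval -0.72 to 0.45, adjusted p = 0.91). The latter was 0.07 without Control 5. In the Combination it was 0.66 against Control (SE 0.28, 95% interval 0.07 to 1.25, unadjusted p = 0.030, adjusted p = 0.13 by limma). Against ABL503 the Combination difference was 0.80 (SE 0.28, 95% interval 0.21 to 1.39, unadjusted p = 0.011, adjusted p = 0.11 by limma). Each of these passed when 1 library was left out, at 0.87 without Control 5 (adjusted p = 0.039) and at 0.97 without ABL503 1 (adjusted p = 0.049).

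Gzmm, the methionine- and leucine-preferring granzyme, was the only member with a lower mean than Control in every treated group, and it fell in the Combination. It stood at 24.9, 20.4, 24.3, 19.2 and 17.4 FPKM in Control and at 17.4, 16.0, 15.1, 11.9 and 13.8 with pembrolizumab. In ABL503 it stood at 8.69, 23.8, 12.5, 12.5 and 26.5, and in the Combination at 18.7, 5.40, 10.5, 3.66 and 3.68. The Combination libraries other than replicate 1 lay below every Control library and every pembrolizumab library, and the ABL503 libraries spread from below to above the Control and pembrolizumab ranges. The means were 21.2 ± 3.23, 14.8 ± 2.12, 16.8 ± 7.84 and 8.40 ± 6.41.

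Gzmm was lower in the Combination than in Control by limma (-1.47, SE 0.33, adjusted p = 0.0065), and the call held when any 1 of the 10 libraries was left out, with the difference between -1.80 and -1.28. It did not pass with pembrolizumab (-0.49, 95% interval -1.17 to 0.20, adjusted p = 0.44) or with ABL503 (-0.42, 95% interval -1.11 to 0.26, adjusted p = 0.67). Against pembrolizumab the Combination differed by -0.98 (SE 0.33, adjusted p = 0.20), and by -1.31 without Combination 1, where it passed (adjusted p = 0.045). Against ABL503 it differed by -1.05 (SE 0.33, adjusted p = 0.069), and passed with array weights (-1.18, adjusted p = 0.030), without ABL503 1 (-1.24, adjusted p = 0.032) and without Combination 1 (-1.38, adjusted p = 0.0097).

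Because NK cells carry Gzmm, the 6 NK markers searched are given beside it. Their summed level was 47.7 to 156 FPKM in Control, 31.9 to 89.9 with pembrolizumab, 36.8 to 86.9 with ABL503 and 8.58 to 51.1 in the Combination, so it was lowest in the group where Gzmm was lowest. Nearly all of it came from Tyrobp and Fcer1g, signalling adaptors that NK and myeloid cells share. Both were lower in the Combination than in Control by limma (-2.09, adjusted p = 0.0038 for Tyrobp, and -1.45, adjusted p = 0.015 for Fcer1g), and the Fcer1g call ended under 3 of 8 alternatives other than leaving out 1 library (adjusted p up to 0.057). The more NK-restricted Ncr1 was listed at 0 in 3 of 5 Control libraries, 4 of 5 in each single-agent group and 5 of 5 Combination libraries, and reached at most 0.578 FPKM. Klrb1c had a median of 0.424 FPKM in Control and 0.418 in the Combination. The macrophage and monocyte markers, 8 genes, summed to 13.3 to 105 FPKM in Control and 19.8 to 31.4 in the Combination. Between libraries of a group, the Gzmm deviation had r = 0.35 with that of the NK marker sum (Spearman rho = 0.30, n = 20, permutation p = 0.22, adjusted p = 0.52 over 20 relations), and r = 0.10 without the 2 libraries farthest from the median. The part of these cells in the Gzmm result was not tested beyond that.

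Comparisons between the treated groups set the antibodies against each other. Pembrolizumab added to ABL503, read as the Combination against ABL503, raised Prf1 and Gzmb, 2 of 5, and lowered 0, where 4.53% of all genes passed in either direction. Between the single agents, 3 of 5 were lower with ABL503 than with pembrolizumab (Prf1, Gzma and Gzmb) and 0 higher, where 1.28% of all genes passed in either direction. ABL503 added to pembrolizumab, read as the Combination against pembrolizumab, gave 0 of 5 calls in the limma fit, where 0.161% of all genes passed and 1552 had an unadjusted p under 0.05. Of the 5, Gzma and Gzmm were under that unadjusted limit, both lower in the Combination.

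The interaction, the effect of pembrolizumab in the presence of ABL503 minus its effect in the absence of ABL503, asked whether the effects of the 2 antibodies on the log2 scale added up. It was called for 0 of 5 genes by limma, where 0.203% of all genes passed and 1210 had an unadjusted p under 0.05. For Prf1 it was -1.05 (SE 0.29, unadjusted p = 0.0019, adjusted p = 0.15) and for Gzmb -0.85 (SE 0.28, unadjusted p = 0.0064, adjusted p = 0.24). Gzma was at -0.81 (95% interval -1.80 to 0.19), Gzmk at 0.39 (-0.44 to 1.22) and Gzmm at -0.56 (-1.53 to 0.41). For Prf1 and Gzmb the Combination mean therefore lay below the sum of the 2 single-agent differences, by an amount that did not pass over all genes.

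**Figure D2:**
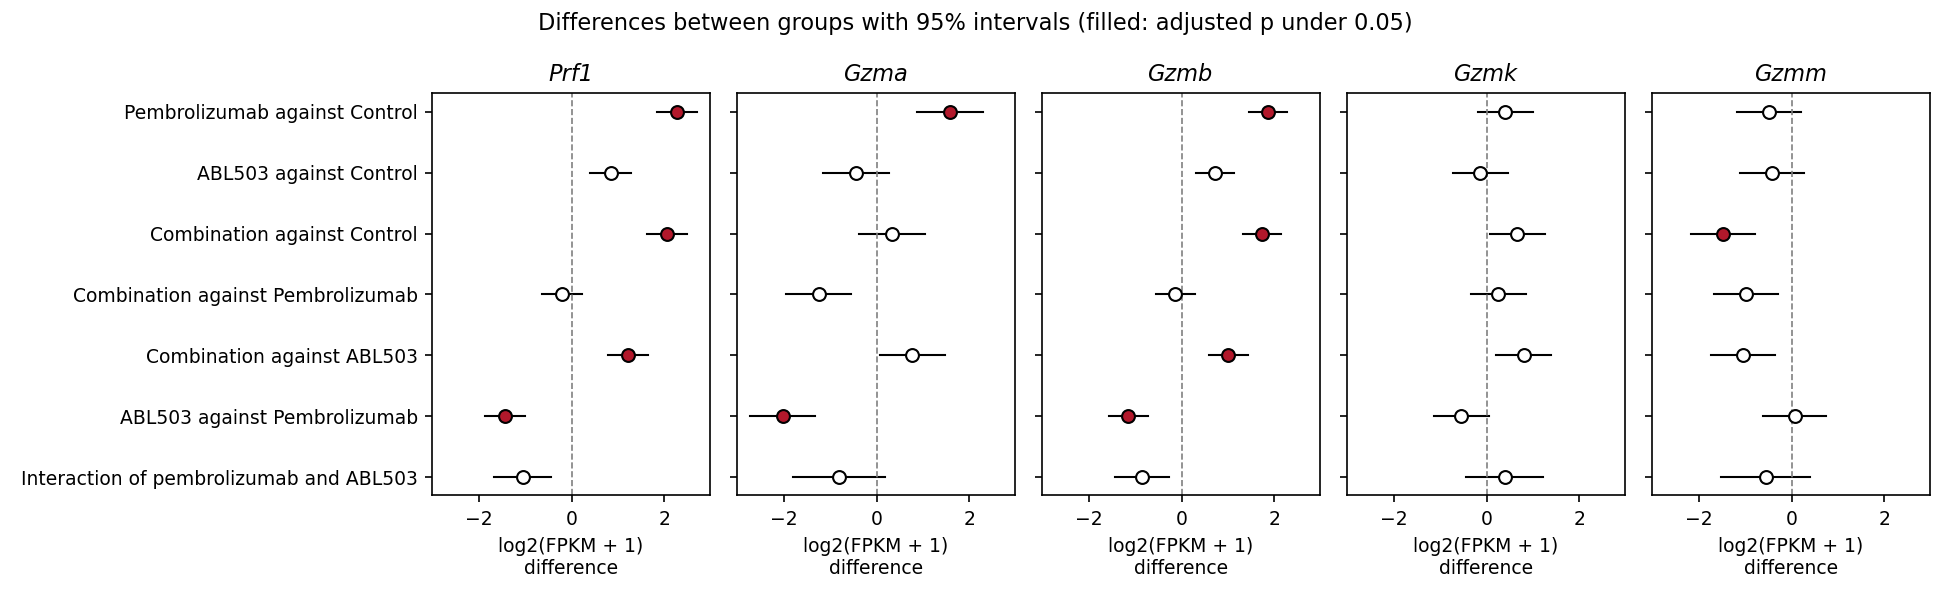
Difference of each gene in each of the 7 comparisons on the log2(FPKM + 1) scale, with 95% intervals from limma and filled points for adjusted p under 0.05. Prf1 and Gzmb share a pattern of filled points, Gzma shares it only with pembrolizumab and between the single agents, Gzmk has none, and Gzmm has 1, in the Combination against Control.

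FPKM is scaled by transcript length, so the levels of the 5 genes can be set against each other. Their summed level averaged 1090.02 ± 272.5 FPKM in Control, 3302 ± 468 with pembrolizumab, 1405 ± 217 with ABL503 and 2763 ± 831 in the Combination. The make-up of that sum differed between groups, and the values that follow are descriptions without a test. Gzmb was 58.0% ± 4.62 of the sum in Control, 68.2% ± 4.89 with pembrolizumab, 72.8% ± 6.54 with ABL503 and 76.4% ± 6.66 in the Combination. Gzma was 24.6% ± 4.997 in Control and 24.0% ± 5.67 with pembrolizumab, but 14.9% ± 8.04 with ABL503 and 13.01% ± 5.11 in the Combination. The groups given ABL503 thus had the smaller mean share of Gzma, with or without pembrolizumab, and ABL503 replicate 2, at 28.5%, and Combination 3, at 19.0%, were the 2 of those 10 libraries above the lowest Control share (18.8%).

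Gzmk made up 14.7% ± 3.74 of the sum in Control, 6.25% ± 1.13 with pembrolizumab, 10.2% ± 2.56 with ABL503 and 9.18% ± 1.71 in the Combination. All 5 pembrolizumab shares (4.86% to 7.45%) lay below all 5 Control shares (11.1% to 19.9%), although the Gzmk level itself did not differ beyond its spread. Gzmm was 2.11% ± 0.85 of the sum in Control, 0.45% ± 0.07 with pembrolizumab, 1.22% ± 0.60 with ABL503 and 0.30% ± 0.19 in the Combination. Prf1 was 0.57% of the sum in Control and 1.02%, 0.84% and 1.07% in the treated groups. The ratio of Gzmb to Gzmk was 4.16 ± 1.14 in Control, 11.1 ± 1.76 with pembrolizumab, 7.43 ± 1.59 with ABL503 and 8.66 ± 2.28 in the Combination. The ratio of Gzmb to Prf1 was 105 ± 22.8 in Control and 69.1 ± 12.9, 89.2 ± 17.5 and 73.6 ± 15.1 in the treated groups, in the same order, so the mean ratio was smaller in each treated group than in Control.

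**Figure D3:**
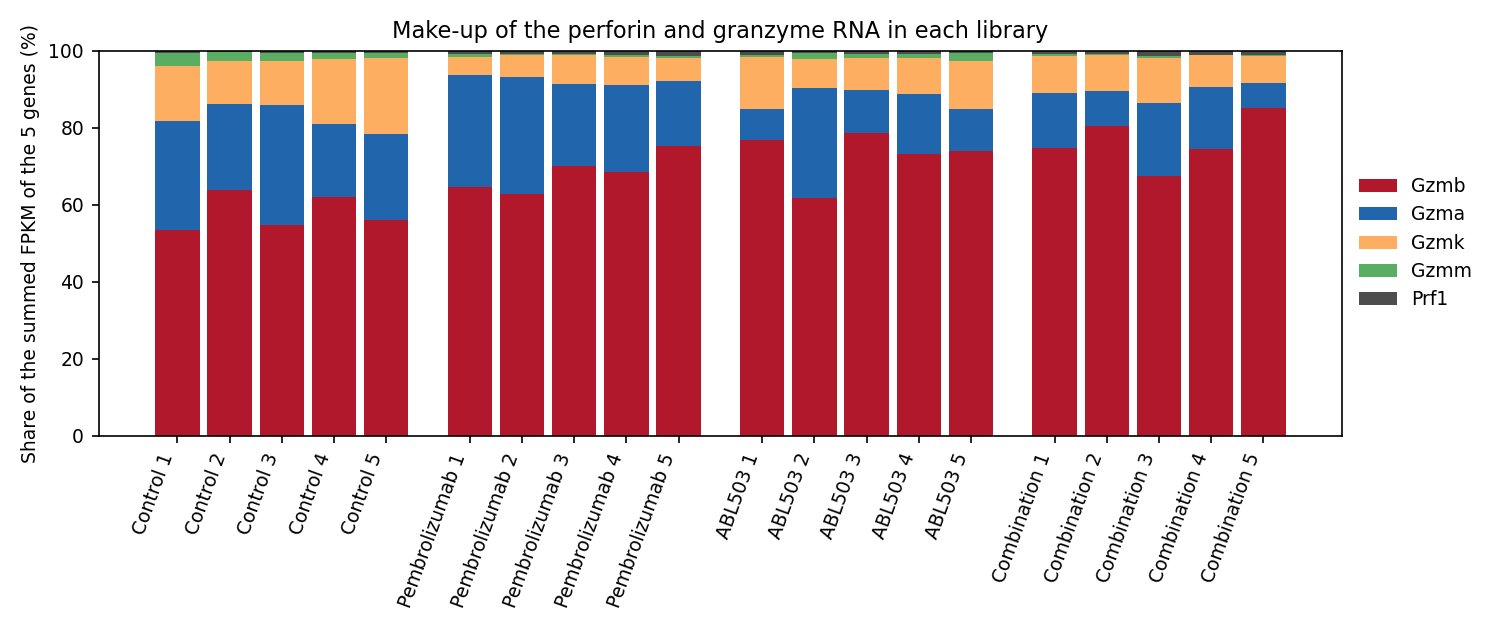
Share of each gene in the summed FPKM of the 5 genes, in percent, as stacked bars from 0 for each of the 20 libraries. Gzmb is the largest part of every bar, the Gzma part is small in most libraries given ABL503, and the Gzmk part is smallest with pembrolizumab.

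Differences between libraries of the same group showed which of the 5 genes varied together. Deviations from the group mean of log2(FPKM + 1) were correlated over the 20 libraries for all 10 pairs, with 100000 permutations of libraries within groups and adjustment over the 10 pairs. Prf1 and Gzmb varied together (r = 0.70, Spearman rho = 0.70, permutation p = 0.00077, adjusted p = 0.0077), as did Gzmb and Gzmk (r = 0.74, rho = 0.68, permutation p = 0.0020, adjusted p = 0.010). Prf1 and Gzmk gave r = 0.64 (rho = 0.61, permutation p = 0.014, adjusted p = 0.047), which did not pass by rank (adjusted permutation p = 0.070). Without the 2 libraries farthest from the median these 3 correlations were 0.60, 0.69 and 0.53. Libraries with more Gzmb than their group thus also tended to have more Prf1 and more Gzmk, although Gzmk passed in no comparison between groups.

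Leaving out 1 library at a time, the Prf1 and Gzmb pair and the Gzmb and Gzmk pair passed in 19 of 20 cases each, and failed without ABL503 1 (adjusted permutation p = 0.052), where no pair passed. The Prf1 and Gzmk pair passed in 8 of 20. ABL503 1 had the highest Prf1, Gzmb and Gzmk and the lowest Gzmm of its group. Gzma stood apart from these 3, with r = 0.05 to Prf1, 0.19 to Gzmb and 0.25 to Gzmk, none of which passed (adjusted permutation p = 0.93, 0.69 and 0.63). Its highest correlation was with Gzmm (r = 0.56, rho = 0.52, permutation p = 0.040, adjusted p = 0.10, and r = 0.42 without the 2 farthest libraries). Gzmm did not vary with Prf1 (r = -0.17), Gzmb (r = 0.01) or Gzmk (r = 0.15) beyond what permutation gave (adjusted permutation p of 0.69, 0.99 and 0.73). Of 20 relations between the 5 genes and the column sum or the summed CD8, NK or macrophage markers, none passed by permutation (smallest adjusted p = 0.52), and the largest was Gzmk with the CD8 markers (r = 0.54, rho = 0.51, permutation p = 0.048).

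**Figure D4:**
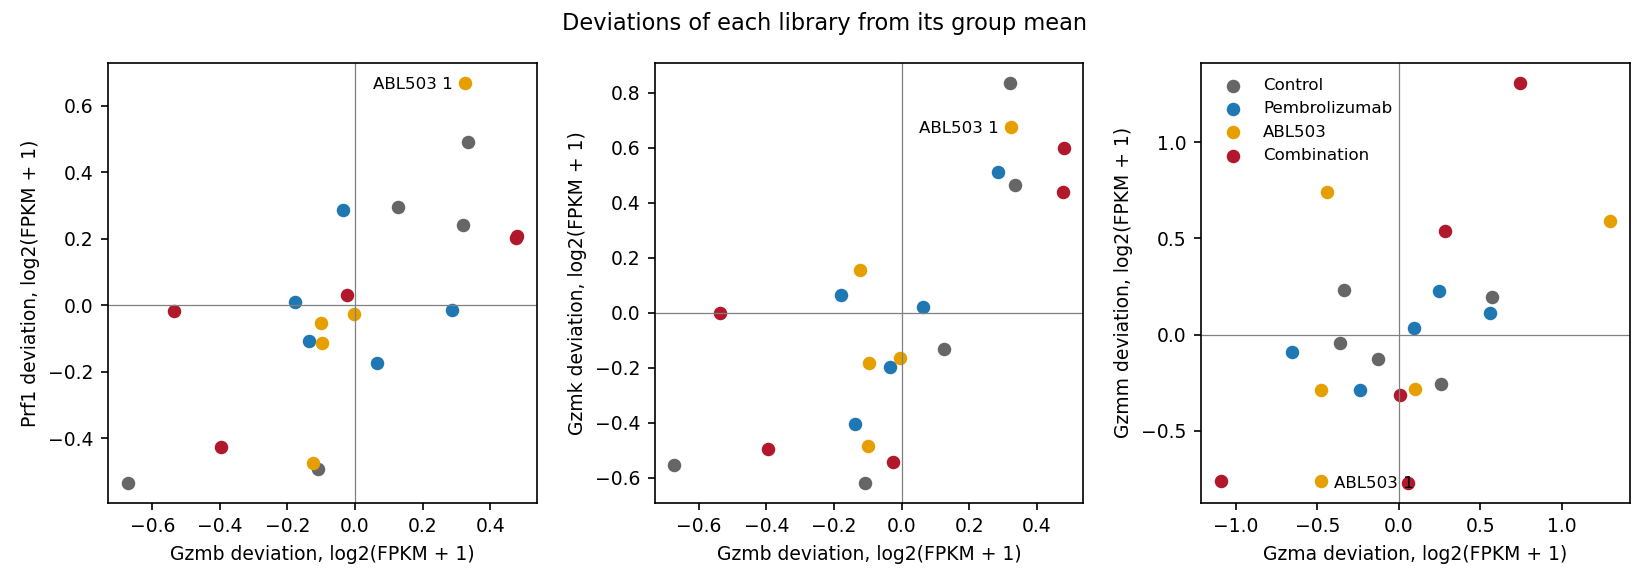
Deviation of each library from its group mean on the log2(FPKM + 1) scale, for Prf1 and Gzmk against Gzmb and for Gzmm against Gzma, coloured by group, with ABL503 replicate 1 labelled. The points of Prf1 and Gzmk rise with Gzmb (r = 0.70 and 0.74), and those of Gzmm with Gzma are more scattered (r = 0.56).

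The genes most like each member were taken from 4962 genes whose mean log2(FPKM + 1) reached 3, by Pearson r over the 20 libraries, as a description in which the group differences take part. Prf1 and Gzmb were each other's nearest gene (r = 0.96, rho = 0.94). After it Prf1 was most like Aldoa (r = 0.92) and Ybx3 (0.90), and Gzmb most like Fkbp1a (0.93) and Ms4a4b (0.92). Gzmk was most like Glrx (r = 0.94, rho = 0.93), Ms4a6b (0.87) and Pfn1 (0.87). Gzmm was most like Pde4b, Bcl2l11 and Hmgn1 (each r = 0.85). The nearest genes to Gzma had lower values, 0.75 for Sf3b2 and Srpk2 and 0.72 for Txn2.

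On deviations from group means the nearest genes changed, except for 2. Glrx remained near Gzmk (r = 0.92), together with Sh2d1a (0.92) and Arhgdib (0.88), and Pde4b remained nearest to Gzmm (0.83), followed by Foxp1 (0.80) and Rnf125 (0.79). Gzmb was nearest to Ncbp2 (0.85), Fam118b (0.84) and Havcr2 (0.80), Prf1 to Idh3a (0.76), Flot1 (0.76) and Bax (0.75), and Gzma to Gpr18 (0.72), Oaz1 (0.70) and Gmcl1 (0.70). These were the highest of 4962 values each, over libraries that share the same 4 groups.

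Genes that neighbour a member on the chromosome did not all follow it. Gzmc, next to Gzmb, was higher with ABL503 (3.81, SE 0.63, adjusted p = 0.0048) and in the Combination (3.58, SE 0.63, adjusted p = 0.0011), but did not pass with pembrolizumab (1.79, adjusted p = 0.10). Gzmb had passed with pembrolizumab and in the Combination. Gzma and Gzmk, themselves neighbours, differed in that Gzma passed with pembrolizumab and Gzmk in no comparison, though that difference itself was not tested. Cdc20b, whose span overlaps Gzma, averaged at most 0.523 FPKM in any group. Esm1, which lies inside the span of a long GENCODE transcript of Gzmk, averaged 6.77, 9.91, 4.72 and 10.2 FPKM in Control, pembrolizumab, ABL503 and the Combination and passed against Control in none of the 3 (adjusted p = 0.29, 0.75 and 0.19). How the counting treated such overlaps is not given in the sources used here.

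Beside Gzmm, Cdc34 lies 622 bp away and did not pass in the Combination (-0.24, adjusted p = 0.096), and Bsg, 9097 bp away, was higher there (0.62, adjusted p = 0.00055), opposite to Gzmm. Bsg was also higher with pembrolizumab (0.45, adjusted p = 0.013). Adamts14, beside Prf1, was near the lower limit of the table, at 0.279 FPKM in Control, 0.961 with pembrolizumab, 0.42 with ABL503 and 1.43 in the Combination, and since it reached the filter through its higher groups no test of it is given.

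The rest of the granule pathway was read from lists of genes. For pembrolizumab, ABL503 and the Combination against Control, the medians over all genes were -0.03, -0.01 and -0.04. In the same order 5.55%, 0.619% and 12.6% of all genes passed in either direction, the shares beside which each list count stands. Whether a list exceeded its share was not tested. Of the other granzyme genes, Gzmc to Gzmg and Gzmn, 4 of 6 passed the filter on low values. Gzmd was listed at 0 in all 5 Control libraries and Gzme in 3 of 5, so these genes passed that filter mainly through the treated groups, and no count or median over the list is given. Gzmd averaged 4.44 FPKM with pembrolizumab, 7.70 with ABL503 and 9.52 in the Combination, and Gzme 2.74, 6.23 and 10.3 in the same order. Gzmn was listed at 0 in all 20 libraries. With ABL503, where none of the 5 members passed, Gzmc averaged 387 ± 83.3 FPKM against 48.1 ± 67.0 in Control, and Gzmf 59.6 ± 26.0 against 6.45 ± 5.61 (3.32, adjusted p = 0.036). The Gzmf call with ABL503 ended in 9 of 10 cases with 1 library left out (adjusted p up to 0.10, without Control 4), and the Gzmc call in none. Gzmf was not particular to ABL503, since it also passed with pembrolizumab (64.8 ± 33.3 FPKM) and in the Combination (111 ± 96.0). Each of those 2 calls ended in 0 of 10 cases with 1 library left out. The pembrolizumab call ended without a filter (adjusted p = 0.052 by limma).

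Genes of granule packing and granzyme activation, 11 tested, had 3 higher and 0 lower with pembrolizumab, 0 and 0 with ABL503, and 4 higher and 2 lower in the Combination (medians 0.12, 0.11 and -0.01). Cst7, cystatin F, an inhibitor of the cathepsins that activate granzymes, rose with pembrolizumab (0.74, SE 0.15, adjusted p = 0.0072) and in the Combination (0.82, SE 0.15, adjusted p = 0.0018). Ctsc, cathepsin C, which trims pro-granzymes into active enzymes, was lower in the Combination than in Control (-0.59, SE 0.14, adjusted p = 0.011) and than with ABL503 (-0.70, SE 0.14, adjusted p = 0.0076). It averaged 31.3 ± 4.53 FPKM in Control and 20.5 ± 3.30 in the Combination. Ctsh, another cathepsin that can convert pro-granzyme B, was lower in the Combination as well (-1.89, SE 0.48, adjusted p = 0.015), at 1.26 ± 0.81 against 8.72 ± 7.95 FPKM, a call that ended without a filter (adjusted p = 0.054).

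Nkg7, a granule membrane protein that aids degranulation, averaged 4722 ± 1309 FPKM in Control and 7321 ± 655 with pembrolizumab (0.68, SE 0.16, adjusted p = 0.015), and rose in the Combination too (0.60, SE 0.16, adjusted p = 0.017). Both Nkg7 calls ended without a filter or with only the groups compared (adjusted p up to 0.061). Lamp2, a lysosomal membrane protein, rose in the Combination (0.74, SE 0.13, adjusted p = 0.0014), and its call with pembrolizumab (0.48, adjusted p = 0.037) ended in 7 of 10 cases with 1 library left out (adjusted p up to 0.11, without Pembrolizumab 1). M6pr, the receptor that sorts granzymes to granules, was higher in the Combination (0.39, SE 0.09, adjusted p = 0.0082). Srgn, the serglycin core that holds granzymes in the granule, averaged 1872, 1945, 2167 and 1848 FPKM across the groups and did not pass against Control in any of the 3. Srgn was named after its values were seen.

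Genes of granule release, 12 tested, had 0 higher with pembrolizumab, 0 with ABL503 and 3 in the Combination, with none lower (medians 0.16, 0.06 and 0.34). The 3 were the membrane fusion genes Snap23 (0.40, adjusted p = 0.0077), Stx11 (0.69, adjusted p = 0.0078) and Vamp8 (0.42, adjusted p = 0.030). The Vamp8 call ended in 5 of 10 cases with 1 library left out (adjusted p up to 0.091, without Control 1). Serpin genes listed as possible inhibitors of granzymes, 7 tested, had 1, 0 and 3 higher and none lower in the 3 comparisons (medians 0.29, 0.27 and 0.58). Serpinb6b, an inhibitor of granzyme A in mouse, rose beside Gzma with pembrolizumab (0.73, SE 0.15, adjusted p = 0.0071), and also in the Combination (0.58, SE 0.15, adjusted p = 0.016), where Gzma did not pass. That Combination call was at an adjusted p of 0.051 without a filter. Serpinb6a (0.84, adjusted p = 0.0034) was higher in the Combination. The other gene of the 3 counted there was Serpinb9b. Its median was 0.779 FPKM in Control (0.22 to 5.10), under the 1 FPKM of the filter, and 9.62 in the Combination (1.51 to 29.2). Since Serpinb9b reached the filter mainly through the treated groups, no test of it is given. The count and the medians of this list include it.

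Other killing and effector molecules, 10 tested, had 3, 1 and 2 higher and none lower (medians 0.23, 0.30 and 0.21). The chemokine gene Ccl3 passed in each of the 3, at 1.19, 1.12 and 1.21 (adjusted p = 0.0093, 0.045 and 0.0042), and its call with ABL503 ended in 9 of 10 cases with 1 library left out (adjusted p up to 0.14, without Control 1). Ifng (0.61, adjusted p = 0.034) and Ccl4 (0.71, adjusted p = 0.023) passed with pembrolizumab. The Ifng call ended in 7 of 10 cases with 1 library left out and under 4 of 8 other alternatives, and the Ccl4 call in 2 of 10 and 3 of 8. The highest adjusted p with 1 library left out came without Control 1 for both (0.095 for Ifng and 0.069 for Ccl4). Ltb, lymphotoxin beta, passed in the Combination (0.42, adjusted p = 0.040), but the call ended in 5 of 10 cases with 1 library left out (adjusted p up to 0.11, without Control 1) and under 6 of 8 other alternatives (adjusted p up to 0.12).

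The transcription factors that act on cytotoxic genes, 17 tested, had 1 higher and 2 lower with pembrolizumab, 0 and 0 with ABL503, and 1 higher and 3 lower in the Combination (medians 0.05, 0.07 and -0.18). Zeb2, a factor of terminal effectors, was higher with pembrolizumab (1.01, SE 0.16, adjusted p = 0.00098) and in the Combination (0.73, SE 0.16, adjusted p = 0.0052), the comparisons in which Prf1 and Gzmb rose. Stat4, which relays interleukin 12, was lower with pembrolizumab (-0.66, SE 0.09, adjusted p = 0.00044), and its interaction passed (0.75, SE 0.13, adjusted p = 0.023). The interaction call ended in 2 of 20 cases with 1 library left out (adjusted p up to 0.052, without Pembrolizumab 1) and without a filter (adjusted p = 0.053). Tbx21, the T-box factor T-bet, averaged 22.9 ± 4.91 FPKM in Control, 14.9 ± 2.69 with pembrolizumab and 15.0 ± 3.18 in the Combination (-0.58, adjusted p = 0.038). That call ended in 6 of 10 cases with 1 library left out (adjusted p up to 0.11, without Combination 5). Klf2, a factor of quiescent and recirculating cells, was lower in the Combination (-1.17, SE 0.23, adjusted p = 0.0030). The remaining calls, Bhlhe40 lower with pembrolizumab (-0.40, adjusted p = 0.049) and Nfatc1 lower in the Combination (-0.44, adjusted p = 0.041), ended in 10 and 6 of 10 such cases (adjusted p up to 0.11 for both, each without Control 1). Runx3 averaged 15.9, 15.1, 16.2 and 17.2 FPKM and Eomes 10.7, 10.7, 11.9 and 9.42 across the groups, and neither passed against Control. They were named after their values were seen.

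Stem-like and memory genes, 13 tested, were 0 higher and 4 lower with pembrolizumab, 0 and 0 with ABL503, and 0 and 8 in the Combination (medians -0.44, -0.25 and -0.64). Id3 (-1.43, adjusted p = 0.0046) and S1pr1 (-0.98, adjusted p = 0.014) were lower with pembrolizumab, and so were Tcf7 (-1.61, adjusted p = 0.028) and Slamf6 (-0.60, adjusted p = 0.022). The calls of Tcf7 and Slamf6 ended in 4 and 3 of 10 cases with 1 library left out (adjusted p up to 0.081 without Pembrolizumab 1 and 0.062 without Control 4), and the S1pr1 call ended without a filter (adjusted p = 0.052). In the Combination these 4 were lower too, Id3 at -2.06, S1pr1 at -1.43, Tcf7 at -1.996 and Slamf6 at -0.74 (adjusted p = 7.19e-05, 0.00041, 0.0041 and 0.0034). Among the calls there, those of Bach2 and Il7r ended in 6 and 5 of 10 cases with 1 library left out (adjusted p up to 0.12 without Combination 2 for Bach2 and 0.068 without Control 1 for Il7r). Gzmk, known from less differentiated cells, passed in neither of those comparisons (0.41 and 0.66).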

How the data were processed

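CD8+ T cells sorted from MC38 tumours were sequenced in 4 groups of 5 libraries, prepared with the SMART-Seq v4 kit per the labels. HISAT2 and StringTie on GRCm38 (mm10) produced the values, per the submitters' processing notes, which give no version or annotation. The deposited values are FPKM, a unit inferred here: no unit is named, the values have decimals, and column sums differ. The low values held no whole-read steps, so depth and counting error are unknown, and the number of libraries limits the precision. No scaling between libraries is stated.

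All 20 libraries were used, as log2(FPKM + 1), for the 11794 of 45777 symbols that reached 1 FPKM in 5 or more libraries. limma 3.58.1 (R 4.3.3) fitted the 4 group means with 1 pooled variance per gene on 16 residual degrees of freedom, moderated along a mean-variance trend. The 7 comparisons were two-sided, with Benjamini-Hochberg adjustment within each. Permutation tests used NumPy 2.4.6, with ranks from SciPy 1.17.1, in Python 3.11.15, and summaries and plots pandas 2.3.3 and matplotlib 3.10.9. The fit was tested on simulated data.

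The members and gene lists were chosen with earlier results of these data known. Values of 1 listed gene are not reported here. Named beside the members were list genes past the threshold, the 3 genes most like each member (leaving out predicted models, pseudogenes and receptor segments), and the nearest protein-coding neighbours. Alternatives were a pseudocount of 0.1, no filter, equal column sums, quantile normalization, array weights, a replicate block, only the groups compared, leaving out each library, and leaving out Control 1 and ABL503 3. For the correlations the alternatives were added after seeing the data. Sequences and positions are RefSeq's on GRCm38.p6, where all 5 genes matched by symbol.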

Additional observations from a re-analysis of the deposited data

Results flagged for a closer look

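Gzmb in ABL503 replicate 1, at 1265.66 FPKM, was far from the other 4 libraries of its group, which lay between 927 and 1007. The gap to the nearest was 0.734 of the group's range, above the limit of 0.71 for 5 values. It was the only such case among 20 gene and group combinations examined, and chance gives about 1 in 20. The same library had the highest Prf1 (18.9 FPKM) and Gzmk (222) and the lowest Gzmm (8.69) of the ABL503 group. Without it, Gzmb with ABL503 still did not pass against Control.

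Prf1 lay on opposite sides of the comparison mean when ABL503 was given without and with pembrolizumab. All 5 ABL503 libraries lay above the Control mean of 6.30 FPKM, and all 5 Combination libraries lay below the pembrolizumab mean of 33.0 FPKM. Pembrolizumab 1, 2 and 3 also lay below that mean (30.3, 28.9 and 32.5), and Combination 1 and 2 were close to it (32.7 and 32.5). The Combination and pembrolizumab did not differ beyond the spread (-0.21, adjusted p = 0.70 by limma). The difference between the effects of ABL503 with and without pembrolizumab, the interaction, was -1.05 on the log2(FPKM + 1) scale (SE 0.29, 95% interval -1.66 to -0.44). It did not pass over all genes in the limma fit (adjusted p = 0.15).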

How the results depend on the processing

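Of 675 results for the 5 genes over the alternatives, 663 kept their direction and their side of the threshold, 7 came to pass, 5 changed sign and no call was lost. The sign changes were all among differences that did not pass. With 1 library left out, Gzmk for ABL503 against Control ran from -0.30 to 0.074 (above 0 without Control 5) and Gzmb for the Combination against pembrolizumab from -0.25 to 0.00023 (above 0 without Combination 3). Gzmm for ABL503 against pembrolizumab ran from -0.12 to 0.25, with -0.0079 without Pembrolizumab 4, -0.084 without ABL503 2 and -0.12 without ABL503 5. With 1 library left out the count of members called ran from 0 to 1 for ABL503 against Control and for the Combination against pembrolizumab. It ran from 3 to 4 for the Combination against Control and from 2 to 4 for the Combination against ABL503. The count of correlated pairs ran from 0 (without ABL503 1) to 4.

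Counts over all genes, the background, depended more on the setting. In the order pembrolizumab, ABL503 and Combination against Control, Combination against pembrolizumab, Combination against ABL503, ABL503 against pembrolizumab, and interaction, the main counts were 655, 73, 1484, 19, 534, 151 and 24. Without a filter they were 321, 42, 939, 3, 271, 67 and 6, where more genes were tested. With 1 library left out they ran from 383 to 706, 40 to 72, 957 to 1659, 6 to 49, 263 to 747, 54 to 218 and 6 to 49, with the lowest without Pembrolizumab 1, ABL503 5, Combination 2, Pembrolizumab 1 or Combination 2, ABL503 2, ABL503 2 and Pembrolizumab 1. Array weights gave 85, 935, 301 and 50 for the last 4. With only the groups compared they were 395 for pembrolizumab against Control and 3 for the Combination against pembrolizumab. Without both Control 1 and ABL503 3 they were 435, 37, 32, 88 and 7 for all but the Combination against Control and against ABL503. The cause of these changes in the counts was not tested. Rescaling to equal sums gave 280 higher and 412 lower for pembrolizumab against Control (327 and 328 as deposited). For the Combination it gave 628 and 849 against Control (748 and 736) and 202 and 314 against ABL503 (270 and 264). For ABL503 against pembrolizumab it gave 157 and 44 (102 and 49). Shifts of the median gene were under 0.1.

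With the replicate number as a block, the 7 counts over all genes were 617, 60, 1387, 17, 512, 120 and 16 and the counts of members called were 3, 0, 3, 0, 2, 3 and 0, as without it. Libraries with the same number did not deviate together (r from -0.15 to 0.11 over 30 pairs, 6 of 30 best with their own number). These correlations run over all genes and cannot show what the number stands for. Without read counts, count models were not run.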
